A study of Homo sapiens with 9 samples.

Results

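Of 9 RNA sequencing libraries labelled as BT549, a human triple-negative breast cancer cell line, 4 held at least 100 FPKM of VIM and at least 10 FPKM of CDH2 and are described here as the VIM-high CDH2-high libraries. FPKM is a read level per kilobase of transcript that takes the size of the library into account. The members were thus selected on the measured values of 2 genes, and they were siNC replicate 3 and siWFDC21P-2 replicates 1, 2 and 3. They were set against the other 5, which were siNC replicates 1 and 2 and siWFDC21P-1 replicates 1, 2 and 3. In the study, BT549 cells received a control siRNA (siNC) or siWFDC21P-1 or siWFDC21P-2, both named for the pseudogene WFDC21P, with 3 libraries per group. Each transfection used 5 µl of a 10 µM siRNA stock, given 24 h after seeding, the cells were harvested 48 h later, and each library was made from 1 µg of RNA. The labels do not say how many separate transfections or passages the libraries stand for, and all 9 carry the label of 1 parental line. The files used here do not settle whether all 9 came from the same cells, so each difference below is a difference between libraries as labelled.

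Mesenchymal cells move singly and build a fibrous matrix, whereas epithelial cells form sheets held by E-cadherin junctions, tight junctions, desmosomes and keratin filaments. In the epithelial-mesenchymal transition, transcription factors of the SNAIL, ZEB and TWIST families repress E-cadherin and other junction genes, and cells take up vimentin filaments, N-cadherin, fibrillar collagens and matrix proteases. Breast cancer lines of the basal B or mesenchymal-like type, in which BT549 is usually placed, carry much of this program in culture without stroma. In these cells the transition is rarely all or none, so the members of the program are given one by one.

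The split was made on VIM and CDH2 themselves, so the comparison of the 4 libraries with the other 5 is a description and carries no test. Of the VIM values, the lowest inside the threshold was 162 FPKM and the highest outside it was 41.0 FPKM. For CDH2 these were 14.7 and 0.00698 FPKM. The split also coincided with 2 properties of the files. The 4 libraries shared a table of 29104 genes and the other 5 a table of 34377, with 26636 genes in both. The depth worked out from the low FPKM values was 16.3, 17.4, 16.8 and 17.2 M reads in the 4 libraries and 28.1 to 29.6 M in the others. Expression, gene table and depth therefore cannot be told apart as the property that separates the libraries. The shared genes held 98.9 to 99.7% of the summed FPKM of each library, and the comparisons below use only these. The siNC label fell on both sides of the split, since siNC replicate 3 was in the VIM-high CDH2-high set and siNC replicates 1 and 2 were not. WFDC21P itself stood at 6.87, 4.13, 3.32 and 2.12 FPKM in the 4 libraries (siNC replicate 3 first) and at 0.0629 to 3.08 FPKM in the other 5.

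The 5 marker genes were present at high level in all 4 libraries. Values below are always in the order siNC replicate 3, then siWFDC21P-2 replicates 1, 2 and 3. VIM, which encodes the intermediate filament protein vimentin (hg38, chromosome 10, 17228259 to 17237593, plus strand), was at 310.4, 309, 162 and 178 FPKM. Among the other libraries VIM took 2 levels, 38.5 to 41.0 FPKM in siNC replicate 1 and siWFDC21P-1 replicates 1 and 2, and 0.699 and 0.517 FPKM in siNC replicate 2 and siWFDC21P-1 replicate 3. The pair with little VIM had EPCAM, an adhesion protein of epithelial cells, at 209 and 228 FPKM, and the other 3 had at most 0.0412 FPKM of it. These 2 subsets are called EPCAM-high and EPCAM-low below, where they differ.

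CDH2, which encodes N-cadherin, the adhesion protein of mesenchymal and neural cells (chromosome 18, 27950966 to 28177446, minus strand), was at 17.7, 15.9, 14.7 and 18.1 FPKM. These values stood for 1425, 1370, 1220 and 1544 reads, whereas the other 5 libraries held 1 read of CDH2 between them. THY1, a surface glycoprotein of fibroblasts (chromosome 11, 119417378 to 119424985, minus strand), was at 43.6, 49.5, 90.3 and 110.0 FPKM and at no more than 0.0179 FPKM elsewhere. COL1A2, the alpha-2 chain of type I collagen (chromosome 7, 94394561 to 94431232, plus strand), was at 56.2, 80.2, 272 and 224 FPKM. Its highest value outside was 0.0272 FPKM. MMP14, a membrane-bound metalloprotease that cuts collagen and activates MMP2 (chromosome 14, 22836557 to 22849027, plus strand), was at 219.8, 228, 71.9 and 85.9 FPKM, against at most 0.238 FPKM.

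The groups did not overlap for any of the 5 genes, of which VIM and CDH2 had been used to choose the libraries. Within the 4 libraries the markers did not move together, since siNC replicate 3 and siWFDC21P-2 replicate 1 had more VIM and MMP14 and less THY1 and COL1A2 than siWFDC21P-2 replicates 2 and 3. CDH2 was nearly level. The gene bodies of VIM, CDH2, THY1 and COL1A2 are overlapped by annotated antisense genes (VIM-AS1, AC110015.1, USP2-AS1 and AC002074.1). The strandedness of the libraries is not given in the sources used here, so reads from such pairs cannot be told apart where exons overlap.

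**Figure D1:**
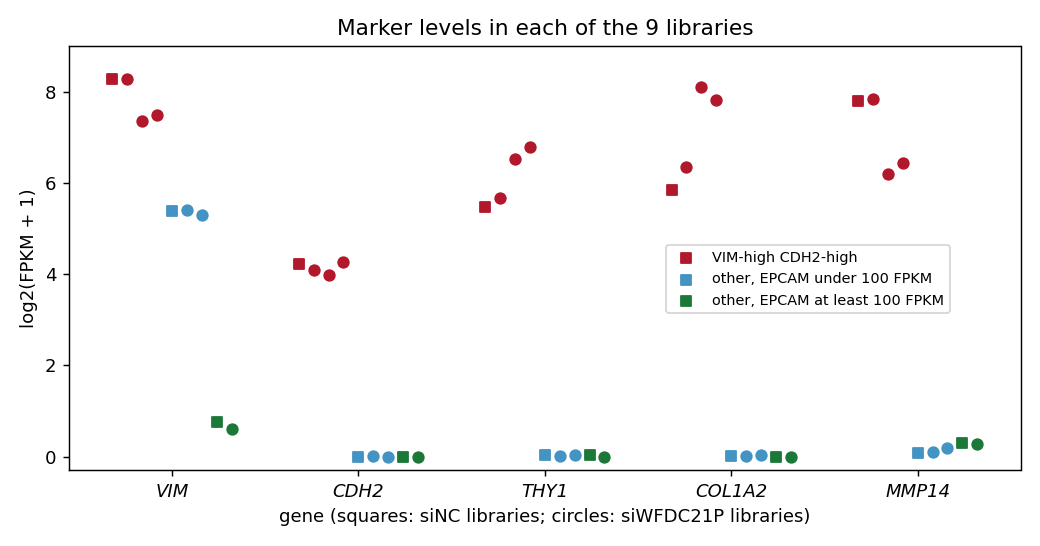
Levels of VIM, CDH2, THY1, COL1A2 and MMP14 as log2(FPKM + 1) on a linear axis, 1 point per library; red marks the 4 VIM-high CDH2-high libraries, blue and green the other 5 by EPCAM level, and squares the siNC libraries. All red points lie above all others in each gene, and only VIM has a middle level, at 38.5 to 41.0 FPKM.

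Over all genes, 13014 of the shared genes had a mean of at least 1 FPKM across the 9 libraries. A gene could reach this mean through either side of the split alone, as THY1 did through the 4 libraries. Genes low in all 9 were left out of the counts. A gene was counted as higher when its lowest value in the 4 libraries was above its highest value in the other 5 and the means of log2(FPKM + 1) differed by at least 2, and as lower in the mirrored case. By this count 492 genes (3.78%) were higher and 335 (2.57%) were lower, and the median difference over all 13014 genes was -0.13. Because VIM and CDH2 chose the libraries, these shares are the background for the gene groups and nothing is read from them as a test. There were 451 genes with at least 1 FPKM in all 4 libraries and under 1 FPKM in all other 5. The table of the 4 libraries listed no gene at 0 in all 4, so genes absent from all 4 could not count as lower. The table of the other 5 held 1054 genes at 0 in all 5. Of the 7741 genes listed only for the other 5 libraries, 813 reached 1 FPKM in a library. Of the 2468 listed only for the 4, 231 did. Pearson's r across genes, on log2(FPKM + 1), was 0.985 between siNC replicate 3 and siWFDC21P-2 replicate 1, and 0.986 between siWFDC21P-2 replicates 2 and 3. Pairs taken across these 2 couples gave 0.927 to 0.942. With the EPCAM-low libraries the 4 correlated at 0.696 to 0.728, and with the EPCAM-high ones at 0.658 to 0.684. Genes are not independent replicates, and all pairs share the annotation and the processing.

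Of the main cadherins of the transition, CDH2 separated the groups and CDH1 did not. Among cadherins and their catenins, 8 of 11 listed genes had a mean of at least 1 FPKM. Of these CDH2, on which the libraries were chosen, was higher. JUP, the desmosomal and junctional plakoglobin, was lower (1.22, 1.04, 3.3 and 3.58 FPKM against 57.8 to 104). CDH1, which encodes E-cadherin, stood at 0.328, 0.242, 1.16 and 0.886 FPKM, that is 26 to 120 reads, and was at 42.7 and 59.6 FPKM in the EPCAM-high libraries. The EPCAM-low libraries had less CDH1 still (0.0277 to 0.0818 FPKM), so the groups overlapped. CDH3, or P-cadherin, a cadherin of basal epithelium, was at 6.79, 7.55, 19.1 and 16.1 FPKM, below the 19.4 and 27.7 FPKM of the EPCAM-high pair and above the EPCAM-low libraries (at most 0.0548 FPKM). The catenins that link cadherins to actin were present, with CTNNA1 at 62.1 to 76.8 FPKM and CTNNB1 at 42.5 to 99.5 FPKM. CDH11, the cadherin of osteoblasts and fibroblasts, was listed only in the table of the 4 libraries, at 10.7, 12.1, 29.7 and 22.6 FPKM, and has no counterpart value in the other 5.

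Transcription factors of the transition were present in a particular combination. Of 12 listed factors 11 had a mean of at least 1 FPKM, 3 were higher and none was lower, with a median difference of 1.12. FOXC2, GSC and KLF8 were listed only for the other 5 libraries and could not be counted. FOXC2 was at 3.78 to 6.75 FPKM in the EPCAM-low libraries. GSC and KLF8 reached 1.29 and 2.11 FPKM in the EPCAM-high pair. TWIST1, a basic helix-loop-helix factor of mesoderm, was at 10.1, 11.9, 35.4 and 34.9 FPKM, at 0 in the EPCAM-low libraries and at 0.542 and 0.556 FPKM in the EPCAM-high pair. PRRX1, a homeobox factor of limb and craniofacial mesenchyme, was at 6.99, 10.2, 12.1 and 16.8 FPKM and at most 0.0388 FPKM elsewhere. ZEB1, a zinc-finger repressor of epithelial genes, was at 33.1, 32, 19.6 and 19.4 FPKM, against 5.14 to 5.33 in the EPCAM-low and at most 0.0735 in the EPCAM-high libraries. TWIST1, PRRX1 and ZEB1 were all separated from the other 5 libraries without overlap. TWIST1 and PRRX1 were lower in siNC replicate 3 and siWFDC21P-2 replicate 1 than in the other two, and ZEB1 was higher in them.

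TCF4, an E-protein that pairs with TWIST1, was at 1.26, 1.16, 3.95 and 3.35 FPKM (563 to 1839 reads) with 1 read in all other libraries together. It stayed under the size of difference counted (1.68 on the log2 scale). FOXC1, a forkhead factor, was at 24.7 to 36.6 FPKM against 7.89 to 16.3. ZEB2 was just above the others (1.23 to 1.98 against at most 1.18 FPKM). The SNAIL family did not set the 4 libraries apart. SNAI2 was at 2.07, 2.09, 10.4 and 4.62 FPKM, below the EPCAM-low libraries (10.9 to 16) and above the EPCAM-high ones (0). SNAI1 and TWIST2 overlapped between the groups, at 2.42 to 5.93 and 7.32 to 15.2 FPKM in the 4 libraries and at 1.84 to 9.57 and 1.95 to 14.4 in the others. SOX9, a factor of chondrocytes and of epithelial stem cells, was at 3.33 to 13.8 FPKM, between 0 in the EPCAM-low and 73.7 and 81.5 FPKM in the EPCAM-high libraries.

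Surface proteins of fibroblasts and mesenchymal stromal cells were a largely one-sided group. Of 17 listed genes 12 had a mean of at least 1 FPKM, 8 were higher and none was lower, and the median difference was 2.61. Over all 17 listed genes the median was 2.07. Their summed level was 812 to 919 FPKM in the 4 libraries and 84.7 to 158 FPKM in the others. ANPEP, the surface aminopeptidase CD13 (chromosome 15, 89784889 to 89815401, minus strand), had the largest difference of all genes with a symbol, 7.83 on the log2 scale. It was at 263, 340.3, 261 and 289 FPKM, and its highest value elsewhere was 0.833 FPKM. NT5E, the ectonucleotidase CD73, was at 133, 136, 103 and 97.1 FPKM against 1.64 to 8.93, and CD44, a hyaluronan receptor, at 105 to 126 FPKM against 17.4 to 42.1. ALCAM, an adhesion protein of the immunoglobulin family, was at 82.3 to 109 FPKM, with 1.98 to 4.10 in the EPCAM-low and 13.0 and 25.0 in the EPCAM-high libraries. CD248, or endosialin, was at 3.41, 4.88, 20.2 and 17.9 FPKM against at most 0.0802. DDR2, a receptor for fibrillar collagen, and FGFR1 completed the group, at 44.5 to 57.9 and 10.9 to 15.3 FPKM.

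Other classic fibroblast markers were low. PDGFRB, a receptor of pericytes and fibroblasts, was at 0.0322 to 0.0921 FPKM, under the EPCAM-low libraries (0.656 to 1.30). FAP, a protease of activated fibroblasts, was at 0.412 to 0.819 FPKM and overlapped the others. PDGFRA, the other receptor of its kind, was at 0.431 to 1.51 FPKM, next to the highest other value of 0.417. LRRC15 was at most 0.0402 FPKM. AXL, a receptor tyrosine kinase common in mesenchymal lines, was at 76.0, 45.7, 16.9 and 36.0 FPKM. The siWFDC21P-2 replicate 2 value lay inside the EPCAM-low range of 6.53 to 23.5 FPKM.

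**Figure D2:**
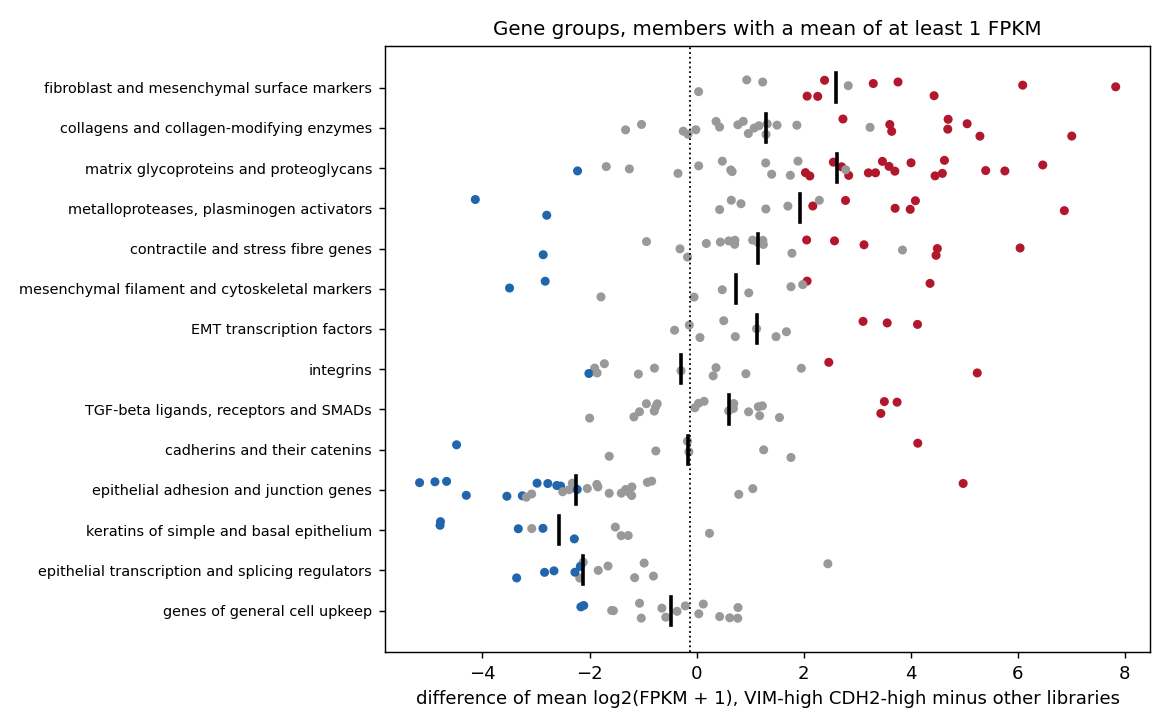
Difference of mean log2(FPKM + 1), VIM-high CDH2-high minus other libraries, for members of 14 gene groups with a mean of at least 1 FPKM; each point is a gene (red higher, blue lower, grey neither by the count used), black bars are group medians and the dotted line is the median of all 13014 genes at -0.13. Matrix, surface and protease groups have medians from 1.30 to 2.63, and the 3 epithelial groups from -2.58 to -2.12. Over all listed genes, without the filter, these medians are from 0.93 to 2.07 and from -2.28 to -1.84.

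Many matrix genes were higher. Among collagens and the enzymes that process them, 25 of 31 listed genes had a mean of at least 1 FPKM, 8 were higher, none was lower, and the median difference was 1.30 (0.66 against the EPCAM-low and 2.35 against the EPCAM-high libraries alone). Over all 31 listed genes the median was 0.97. COL6A1 and COL6A2, chains of the beaded-filament collagen VI, were at 56.4, 89.1, 125 and 123 and at 50.5, 60.4, 49.8 and 52.4 FPKM, against at most 5.70 and 1.80 FPKM. COL3A1, the fibrillar collagen of soft tissue, was at 5.75, 23.0, 242 and 221 FPKM, with the others at 0 to 2.02. COL5A2 was at 62.4 to 175 FPKM, and the EPCAM-low libraries already had 23.1 to 56.5. Of the lysyl oxidases, which crosslink collagen and elastin, 3 were high in the 4 libraries, with LOX at 56.9 to 68.0, LOXL1 at 11.9 to 48.3 and LOXL2 at 83.1 to 183 FPKM. Elsewhere LOXL1 did not exceed 0.0389 FPKM, and LOX and LOXL2 did not exceed 14.7 and 24.6 FPKM. LOXL3 and LOXL4 were at 0.767 to 0.886 and 0.134 to 0.362 FPKM and overlapped the others.

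Type I collagen was unbalanced between its chains. COL1A1, the alpha-1 chain that pairs with the product of COL1A2, was at only 4.24, 4.89, 31.7 and 22.3 FPKM, and the EPCAM-low libraries, with almost no COL1A2, had 18.7 to 19.2 FPKM of it. COL5A1, COL12A1 and SERPINH1, the collagen chaperone HSP47, were likewise shared with the EPCAM-low libraries. SERPINH1 was at 163 to 207 FPKM in the 4 libraries, 106 to 203 in the EPCAM-low ones and at most 0.0652 in the EPCAM-high pair.

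Among matrix glycoproteins and proteoglycans, 30 of 36 listed genes had a mean of at least 1 FPKM, 17 were higher and 1 was lower, with a median difference of 2.63. Over all 36 listed genes the median was 1.96. POSTN, or periostin, a matricellular protein of fibroblasts, was at 14.8, 21.5, 99.8 and 89.7 FPKM (1313 to 9136 reads) and at no more than 1 read in any other library. SPARC, a collagen-binding matricellular protein, was at 25.7, 28.0, 71.3 and 64.9 FPKM against 0.191 to 3.57. MFAP2, a microfibril protein, was at 37.3, 38.6, 77.3 and 80.2 FPKM against at most 0.0732, and SPON2 at 79.5, 111, 176 and 187 FPKM against at most 1.01. All of these were lower in siNC replicate 3 and siWFDC21P-2 replicate 1 than in the other two libraries. The fibrillins FBN1 and FBN2, the backbone of microfibrils, were at 25.3 to 52.8 and 10.4 to 16.3 FPKM, and the proteoglycan BGN was level at 7.73, 8.25, 8.62 and 8.85 FPKM (308 to 373 reads, against 4 reads in the others together). VCAN, CTHRC1, NID1 and EFEMP2 were also higher. Going the other way, FBLN1, a fibulin of elastic fibres, was at 4.95 to 7.44 FPKM against 20.4 to 56.0. DCN, the small proteoglycan decorin that marks many fibroblasts, was at most 0.0181 FPKM, and FN1, or fibronectin, was at 4.56 to 9.13 FPKM and overlapped the others (1.45 to 11.2).

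CCN1 and CCN2, secreted matricellular proteins that are textbook targets of the YAP-TEAD and serum response pathways, were among the most abundant of the group. CCN1 was at 378, 392, 241 and 361 FPKM against 16.4 to 63.1. CCN2 was at 54.3, 77.9, 159 and 245 FPKM, against 1.53 to 3.24 in the EPCAM-low and 8.43 and 9.11 in the EPCAM-high libraries. The sequence before the CCN2 start site is shown because it holds the TEAD recognition letters CATTCC, searched on both strands, 3 times in 250 bases. It is RefSeq sequence of GRCh38.p14, chr6:131951373-131951622, minus strand, written 5′ to 3′, and the capitals mark the letters (here in the reverse orientation, GGAATG), whose first bases lie 169, 104 and 95 bases before the start site.
CCN2: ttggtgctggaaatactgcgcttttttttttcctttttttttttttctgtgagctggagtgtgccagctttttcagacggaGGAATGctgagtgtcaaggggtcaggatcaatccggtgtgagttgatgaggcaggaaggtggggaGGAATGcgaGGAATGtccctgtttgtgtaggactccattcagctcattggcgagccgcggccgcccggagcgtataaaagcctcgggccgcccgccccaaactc
Of all 35116 promoters in the table (300 bases each, from 250 before to 50 after the start site), 14.0% hold CATTCC or its reverse complement. Among the 31 promoters of the matrix glycoprotein and proteoglycan list 5 (16.1%) did, close to that share. Of the 41 promoters of contractile and stress fibre genes 13 (31.7%, from 11 genes) did, and of the 22 of the transition factors 5 (22.7%). Shares under 14.0% included collagens (3 of 29, 10.3%), surface markers (1 of 17, 5.9%) and proteases (0 of 14). A match is a description of the letters and not a bound site.

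Matrix proteases showed higher and lower members. Of 22 listed proteases, activators and inhibitors, 14 had a mean of at least 1 FPKM, 6 were higher and 2 were lower (median difference 1.94, or 1.27 against the EPCAM-low libraries alone). Over all 22 listed genes the median was 0.93. Beside MMP14, MMP2, the gelatinase that MMP14 activates, was at 3.83, 4.29, 29.3 and 23.3 FPKM against at most 3.45. ADAM12, ADAM19 and ADAMTS2, the last of which trims procollagen, were at 8.67 to 28.0, 10.6 to 19.9 and 7.85 to 17.7 FPKM, and none passed 0.0205 FPKM elsewhere. MMP1, MMP16 and ADAMTS12 were listed only in the table of the 4 libraries, at 9.68 to 30.8, 12.6 to 14.3 and 8.29 to 22.4 FPKM. The lower members were MMP15, a second membrane-bound metalloprotease (2.28 to 2.81 against 19.5 to 38.8 FPKM), and TIMP3, the matrix-bound protease inhibitor. TIMP3 was at 0.213, 0.375, 0.104 and 0.240 FPKM, with the others at 12.1 to 26.5 FPKM. TIMP1 and TIMP2 were at 89.5 to 107 and 47.9 to 69.1 FPKM and overlapped the other libraries.

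Contractile genes were partly higher. Of 23 listed genes 21 had a mean of at least 1 FPKM, 6 were higher and 1 was lower, and the median difference was 1.15. ACTA2, the smooth muscle actin of myofibroblasts, was at 56.1, 91.7, 111 and 167 FPKM against at most 1.62. TAGLN, or SM22, was at 22.8, 27.1, 39.5 and 84.2 FPKM against at most 1.06, and MYL9, a regulatory myosin light chain, at 42.6, 51.7, 87.5 and 112 FPKM against at most 6.30. In all 3 genes siNC replicate 3 had the lowest and siWFDC21P-2 replicate 3 the highest value. TPM2 and TPM4, tropomyosins, and PDLIM5 were also higher, and FLNA, the filamin that crosslinks actin, was above the others by less than the size counted (383 to 437 against 56.3 to 185 FPKM). TNS1, a tensin of fibrillar adhesions, was at 0 in siNC replicate 3 and siWFDC21P-2 replicate 1 and at most 0.0153 FPKM in the other two, against 2.18 to 14.9 FPKM. ACTA2 overlaps STAMBPL1, FAS and ACTA2-AS1 in the annotation.

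Not every marker linked with the mesenchymal state was high in the 4 libraries. Among intermediate filament and cytoskeletal markers, 10 of 11 had a mean of at least 1 FPKM. Of these 2 were higher (LGALS1 and VIM, on which the libraries were chosen) and 2 were lower. LGALS1, or galectin-1, was at 577, 492, 706 and 837 FPKM against 115 to 189. S100A4, also called fibroblast-specific protein 1, was at 8.56, 12.5, 37.4 and 51.7 FPKM, below the 132 to 467 FPKM of all other libraries. NES, the filament protein nestin, held 1 or 2 reads in each of the 4 libraries (at most 0.0221 FPKM) and was at 2.50 to 18.1 FPKM elsewhere. FSCN1, the actin-bundling protein of invasive cells, was at 12 to 13.5 FPKM, far under the EPCAM-low libraries (134 to 196) and above the EPCAM-high pair (6.75 and 7.11). DES, or desmin, the filament of muscle, had 1 to 4 reads.

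Integrins, the matrix receptors, split by chain. Of 18 listed 13 had a mean of at least 1 FPKM, 2 were higher and 1 was lower, and their median difference was -0.29, a direction that turned to 0.35 against the EPCAM-low and 0.063 against the EPCAM-high libraries alone, and to 0.080 without siWFDC21P-1 replicate 3. It moved by over 1.5 times without any 1 of the libraries other than siWFDC21P-1 replicate 2 and siWFDC21P-2 replicate 2 (lowest -0.57, without siWFDC21P-1 replicate 1). Over all 18 listed integrins the median was 0.0019. ITGA10, a collagen-binding alpha chain of cartilage, was at 34.5, 52.5, 35.6 and 37.4 FPKM and at most 0.157 FPKM elsewhere. ITGA4, which binds fibronectin and VCAM1, was at 2.76, 1.89, 8.58 and 8.17 FPKM against at most 0.0180. Other collagen-binding chains were low, with ITGA2 at 0.997 to 1.78 FPKM against 2.86 to 41.3, and ITGA1 at 0.0219 to 0.0496 FPKM against 5.30 to 10.3 in the EPCAM-low libraries. ITGB1, the beta chain they all share, was at 584, 432, 469 and 422 FPKM, above every other library (48.2 to 239). ITGB4 and ITGB6, chains of epithelial integrins, were at most 0.499 and 0.0676 FPKM, against 12.9 and 15.4, and 21.3 and 27.8 FPKM, in the EPCAM-high pair.

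Members of the TGF-beta pathway, a main inducer of the transition, showed little separation. Of 22 listed 21 had a mean of at least 1 FPKM, 3 were higher, none was lower, and the median difference was 0.60, which was 0.30 when siNC replicate 2 was left out, 0.37 when siWFDC21P-1 replicate 3 was left out and -0.043 with the siNC libraries alone. The ligands TGFB1, TGFB2 and TGFB3 were at 9.45 to 14.2, 0.915 to 4.65 and 0.762 to 4.77 FPKM and overlapped the other libraries, as did the receptors TGFBR1 and TGFBR2 (7.14 to 14.0 and 33.9 to 80.9 FPKM). The higher members were the ligand BMP4 (7.76, 4.94, 40.0 and 46.4 against at most 0.459 FPKM), LTBP2 of the latent TGF-beta binding protein family (10.2 to 19.0 against at most 0.751 FPKM) and TGFB1I1, the focal adhesion adaptor Hic-5 (7.81 to 12.9 against at most 0.0922 FPKM). SMAD6, an inhibitory SMAD, was at 1.11 to 4.4 FPKM against 4.75 to 38.8, just under the size counted.

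The epithelial side was mostly but not wholly empty. Of 31 epithelial adhesion and junction genes, all with a mean of at least 1 FPKM, 11 were lower and 1 was higher, and the median difference was -2.26. It was -1.45 when siNC replicate 2 was left out, -1.50 when siWFDC21P-1 replicate 3 was left out and -0.26 against the EPCAM-low libraries alone. EPCAM held 3, 2, 0 and 0 reads in the 4 libraries. DSP, the desmosomal plaque protein desmoplakin, was at 0.681, 0.655, 1.23 and 1.34 FPKM against 44.8 to 78.2, and AP1M2, the epithelial adaptor subunit that sorts proteins to the basolateral side, at 0.139, 0.0519, 0.216 and 0.131 FPKM against 8.80 to 259. PKP3, DSC2 and EVPL, further desmosome and plaque proteins, were at 1.91 to 3.47, 0.700 to 0.767 and at most 0.0232 FPKM, each below every other library. ST14 and MAL2 were at most 0.0401 and 0.0537 FPKM, against 4.55 to 90.4 and 12.8 to 61.6.

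The tight junction and apical genes that EPCAM-low libraries also lack were low here without being set apart. CLDN3, CLDN4 and CLDN7 were at 0.235 to 1.73, 0.186 to 0.639 and 0.216 to 1.94 FPKM, while the EPCAM-high pair had 163 and 193, 66.8 and 64.7, and 36.5 and 49.9 FPKM. RAB25, a GTPase of epithelial vesicle transport, was at most 0.0361 FPKM. CLDN1 was the exception, at 124, 99.7, 128 and 139.9 FPKM, and had more than the EPCAM-high pair (20.2 and 29.4) and the EPCAM-low libraries (at most 0.166). DSG2, a desmosomal cadherin, was at 14.5 to 18.9 FPKM against 23.0 to 40.4, and MUC1, an apical mucin, at 3.65 to 11.9 FPKM, which overlapped the others.

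The promoters of 3 of the low genes are shown because they hold the E-box letters CAGGTG, known as the sequence read by the SNAIL and ZEB repressors, 2 to 5 times each. The sequences are the 250 bases before the start site, from RefSeq (GRCh38.p14), 5′ to 3′ on the strand of the gene, and the capitals mark CAGGTG or its reverse complement CACCTG. AP1M2 is at chr19:10587313-10587562 on the minus strand, CRB3, an apical polarity protein, at chr19:6464021-6464270 on the plus strand, and DSP at chr6:7541421-7541670 on the plus strand. They were picked for display for their matches.
AP1M2: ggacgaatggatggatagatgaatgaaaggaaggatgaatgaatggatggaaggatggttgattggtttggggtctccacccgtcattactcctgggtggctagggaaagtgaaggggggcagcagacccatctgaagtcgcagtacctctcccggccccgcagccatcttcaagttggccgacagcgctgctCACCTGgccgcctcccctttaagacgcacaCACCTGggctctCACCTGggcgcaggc
CRB3: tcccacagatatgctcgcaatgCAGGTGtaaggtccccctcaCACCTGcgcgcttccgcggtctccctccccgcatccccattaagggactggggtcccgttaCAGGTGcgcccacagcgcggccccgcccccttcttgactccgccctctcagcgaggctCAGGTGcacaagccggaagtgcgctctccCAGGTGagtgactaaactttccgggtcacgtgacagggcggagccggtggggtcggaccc
DSP: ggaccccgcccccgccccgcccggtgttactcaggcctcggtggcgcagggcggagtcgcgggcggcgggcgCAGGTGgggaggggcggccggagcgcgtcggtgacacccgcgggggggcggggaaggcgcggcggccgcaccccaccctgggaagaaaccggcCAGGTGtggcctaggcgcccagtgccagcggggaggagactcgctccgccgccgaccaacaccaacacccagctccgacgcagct
In AP1M2 the matches start 57, 27 and 15 bases before the start site, and in DSP 178 and 85 bases before it. CRB3 was at 0 in 3 of the 4 libraries and at 0.0375 FPKM in siWFDC21P-2 replicate 2, with 0.193 to 0.369 FPKM in the EPCAM-low and 16.4 and 16.5 in the EPCAM-high libraries. For 18 of the 31 junction genes the table had a promoter. Of their 24 promoters, 16 (66.7%) held the letters in the 300 bases, belonging to 14 genes, whereas 20.6% of all 35116 promoters did. Of the 17 promoters of the epithelial regulators, the other epithelial list with more than a few entries, 3 (17.6%) held them. Promoters of 1 gene can overlap, and the letters alone do not show that a factor binds. The VIM and CDH2 promoters in the table did not hold them.

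Keratins of simple and basal epithelium had a median difference of -2.58, with 5 of 10 lower and none higher. Against the EPCAM-low libraries alone the median was -0.51. KRT6B and KRT16 were listed only for the other 5 libraries and were not counted. They reached 49.9 and 2.18 FPKM in the EPCAM-high pair. KRT8 and KRT18, the keratin pair of simple epithelium, were at 4.32, 3.99, 5.44 and 5.21 FPKM and at 2.1, 1.79, 1.93 and 3.07 FPKM. All other libraries had at least 93.4 FPKM of KRT8 and 53.8 of KRT18. The 2 genes overlap by 1084 bases in the annotation. KRT19 was at 0.418 to 0.872 FPKM, above the EPCAM-low libraries (at most 0.0721) and far under the EPCAM-high pair (925 and 474). KRT7 was lower but present at 26.1, 24.7, 8.64 and 11 FPKM (others 41.5 to 129), and KRT80 was at 15.4 to 21.9 FPKM and overlapped. The epithelial regulators followed, with 5 of 13 lower, none higher and a median difference of -2.12. This median was -1.28 without siWFDC21P-1 replicate 3 and -0.036 against the EPCAM-low libraries alone. OVOL2 and ELF5 were listed only for the other 5 libraries and were not counted. They reached 5.68 and 16.6 FPKM in the EPCAM-high pair. FOXA1, ELF3 and KLF5 were at most 0.231, at most 0.267 and at 3.66 to 5.02 FPKM, against 4.65 to 7.68, 2.05 to 27.1 and 17.7 to 28.7. ESRP1 and GRHL2, a splicing regulator and a factor that maintain epithelial identity, were at most 0.0252 and 0.0197 FPKM. GATA3, the luminal breast factor, ran against the group, at 7.98, 11.3, 30.0 and 28.5 FPKM, with 0.0946 to 0.159 in the EPCAM-low and 19.3 and 11.5 in the EPCAM-high libraries.

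**Figure D3:**
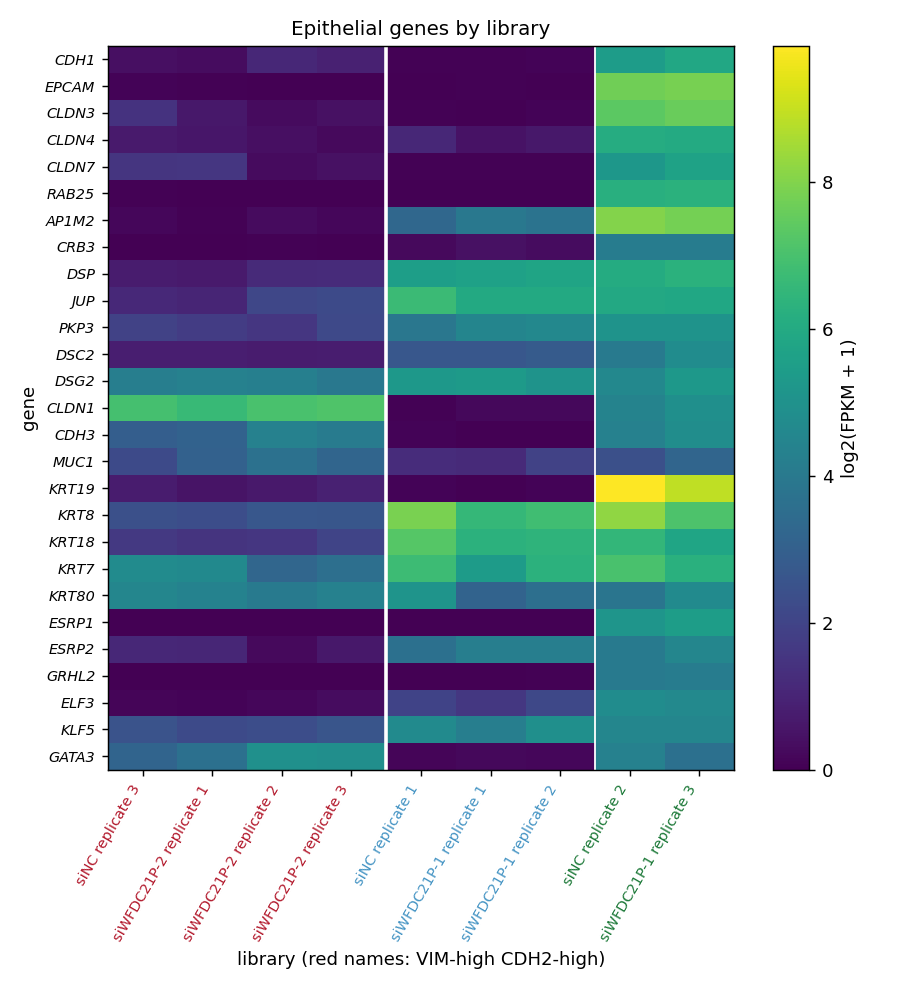
Heat map of log2(FPKM + 1) for 27 epithelial genes (rows) in the 9 libraries (columns; the 4 VIM-high CDH2-high libraries on the left, named in red, then the EPCAM-low and the EPCAM-high libraries). The 4 are dark for CDH1, EPCAM, KRT8 and KRT19, and hold CLDN1 (99.7 to 139.9 FPKM), CDH3, DSG2, KRT7, KRT80 and GATA3.

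By size of difference over the shared genes with a symbol, the 12 leading higher genes were ANPEP, CXCL1, CHRDL1, CXCL5, COL1A2, MMP14, CXCL8, SPON2, GJA1, SFRP2, RAMP1 and THY1. Among these were 3 chemokines that attract neutrophils. CXCL1 was at 338, 362, 505 and 577 FPKM and CXCL5 at 204, 198, 189.5 and 168 FPKM, and neither passed 4.83 FPKM elsewhere. CXCL8, or interleukin-8, was at 1372, 502, 36.2 and 97.4 FPKM, so it was above the other 5 libraries (at most 7.23) and yet the most uneven of the 12. CHRDL1, a secreted BMP antagonist, was at 165 to 229 FPKM, and SFRP2, a secreted modulator of Wnt signalling, at 30.4, 42.0, 154 and 113 FPKM with 0 in all other libraries. GJA1, the gap junction protein connexin 43, was at 44.0, 59.0, 91.3 and 124 FPKM against at most 0.122.

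The 8 leading lower genes were S100A16, MAGEA6, SLPI, VAMP8, MAGEA3, STK26, CSAG1 and SFN. S100A16, a calcium-binding protein of the S100 family, was at most 0.0361 FPKM in the 4 libraries and at 65.7 to 146 FPKM in the others. SFN, the epithelial 14-3-3 protein sigma, was at 1.77, 1.26, 1.27 and 0.749 FPKM against 70.1 to 97.8, and SLPI, a secreted protease inhibitor of epithelia, at 0.309 to 0.802 against 34 to 356 FPKM. MAGEA3, MAGEA6 and CSAG1, cancer-testis genes of the X chromosome, were at most 0.668, 0.219 and 0.493 FPKM, and at 74.6 to 84.1, 70.1 to 88.7 and 48.6 to 53.2 FPKM in both the EPCAM-low and the EPCAM-high libraries. MAGEA3 and MAGEA6 are near-identical paralogs, so the division of reads between them is uncertain. The lower genes thus include members whose level was alike in the 5 other libraries, although those libraries differed from each other in EPCAM, CDH1 and VIM.

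Markers of other cell types were counted in the same 4 libraries, since cultured cells and tissue can carry them. In bulk RNA, fewer cells of a type and less RNA per cell cannot be told apart. Endothelial genes PECAM1, CDH5, VWF and KDR were at 0 in 3 of the 4 libraries each, and the summed level of the 9 listed genes was 3.10 to 9.02 FPKM against 10.0 to 31.5. TEK and ROBO4 lay above the others, at 0.168 to 4.94 and 0.466 to 1.10 FPKM. The leukocyte marker PTPRC was at 0.0481 to 0.160 FPKM, and the 6 listed leukocyte genes summed to 1.39 to 8.91 FPKM, most of it CD14 (1.11 to 8.70 FPKM), against 1.14 to 36.4. Of smooth muscle and pericyte genes MYH11 was at most 0.123 FPKM, and the 9 listed summed to 28.5 to 73.9 FPKM against 25.6 to 95.9. Of these 9, 4 were at 1 FPKM or more in all 4 libraries and 5, MYH11 among them, were under 1 FPKM in all 4. Neural crest genes summed to 1.45 to 2.79 FPKM against 6.55 to 20.4. Adipocyte and osteoblast genes summed to 5.19 to 16.4 FPKM against 5.07 to 23.5, with SP7, an osteoblast factor, at 0 to 1 read. In these 5 lists only 3 endothelial, 1 leukocyte, 4 smooth muscle, 2 neural crest and 3 adipocyte or osteoblast genes had a mean of at least 1 FPKM. None of them was counted as higher or lower. With so few genes, and 3.78% higher and 2.57% lower over all genes, that says little. The 8 listed basal and myoepithelial genes summed to 74.8 to 213 FPKM, above the 44.6 to 63.2 of the others, although their median difference was -0.85. Among them, KRT14 was at 0, 0, 0 and 1 read, TP63 at 0.123 to 0.297 FPKM and OXTR, the oxytocin receptor, at 17.2, 19.0, 27.0 and 38.6 FPKM against at most 0.574. Of the 6 with a mean of at least 1 FPKM, 2 were higher and 2 lower (median difference -1.46, or -0.80 without siWFDC21P-1 replicate 3). Their part in the results above was not tested.

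Hormone receptor genes used to class breast cancers were checked against the label of a triple-negative line. ESR1, the estrogen receptor, held 0, 0, 0 and 1 read, and ERBB2, or HER2, was at 4.11 to 6.11 FPKM, overlapping the others (4.53 to 8.67). PGR, the progesterone receptor, was listed only in the table of the 4 libraries, at no more than 0.00378 FPKM. EGFR was at 53.4, 42.0, 33.7 and 41.9 FPKM against 9.83 to 19.9. GSTP1, a glutathione transferase silenced in some breast cancer lines, was at 103 to 150.4 FPKM in the 4 libraries, at 89.4 and 100.1 in the EPCAM-high pair and at most 0.0179 in the EPCAM-low ones. The tumour suppressor RB1 was at 3.43 to 3.74 FPKM. Genes of general upkeep differed as well. Of 16 such genes none was higher and 2 were lower, PGK1 (32.5 to 56.2 against 149.6 to 228 FPKM) and POLR2A (8.33 to 13.9 against 31.6 to 74.8 FPKM), and their median difference was -0.47. GAPDH was at 326 to 394 FPKM against 503 to 937, whereas ACTB overlapped. Differences of that size thus also occurred outside the mesenchymal and epithelial groups, and the part of gene table and depth in them was not tested.

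Within the VIM-high CDH2-high libraries, several matrix genes varied widely. Over the mesenchymal, matrix, adhesion and cytoskeletal groups the 7 genes with the widest range were COL3A1, MGP, COL5A1, POSTN, MMP2, COL1A1 and S100A4. COL3A1 ranged over 5.17 on the log2 scale. MGP, an inhibitor of calcification, was at 3.81, 5.90, 54.5 and 45.8 FPKM, and COL5A1 at 5.71, 14.9, 56.3 and 53.2 FPKM. In each of the 7 genes siNC replicate 3 and siWFDC21P-2 replicate 1 were lower than siWFDC21P-2 replicates 2 and 3. The number of genes at least 2 apart on the log2 scale was 7 within each of these couples and 108 to 164 between them, out of 13014. Since 1 siWFDC21P-2 library lay next to siNC replicate 3, the division did not follow the siRNA label.

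**Figure D4:**
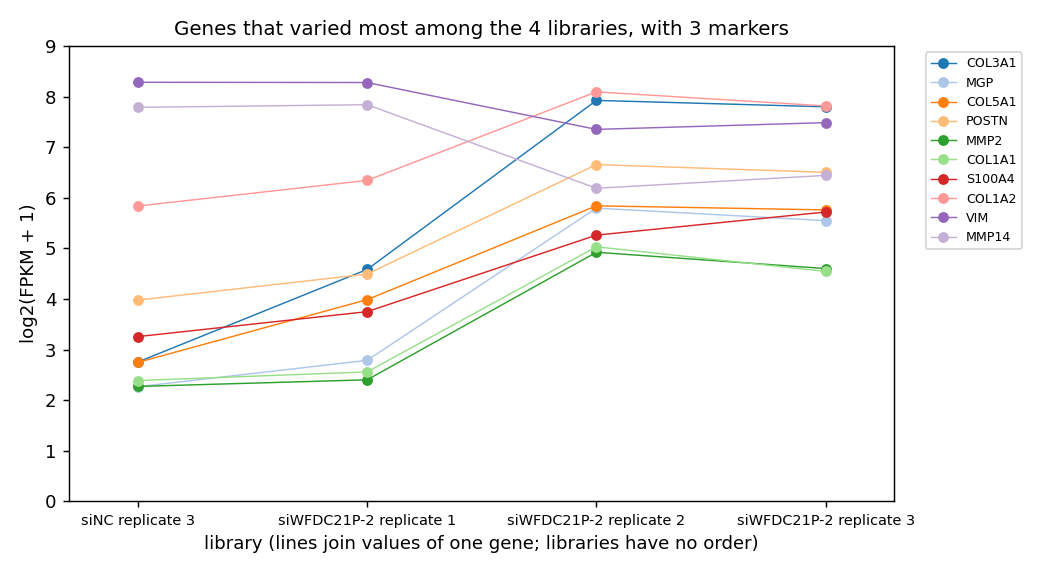
Levels as log2(FPKM + 1) in the 4 VIM-high CDH2-high libraries for the 7 genes with the widest range and for COL1A2, VIM and MMP14; lines join the values of a gene and do not mean an order. COL3A1, MGP, COL5A1, POSTN and MMP2 are lower in siNC replicate 3 and siWFDC21P-2 replicate 1, and VIM and MMP14 are lower in siWFDC21P-2 replicates 2 and 3.

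The siRNA contrast that the labels give was also fitted. In limma, with all 9 libraries and the gene table as a term, siWFDC21P-2 is set against siNC replicate 3 within the VIM-high CDH2-high libraries, and the spread comes from all 9. The control is then 1 library, and the siNC and siWFDC21P-1 groups each mix EPCAM-high and EPCAM-low libraries, which widens that spread, so few calls could be made and a count of 0 says little of how far siWFDC21P-2 differed from siNC. None of 13014 genes (0%) passed a Benjamini-Hochberg adjusted p of 0.05 and the smallest adjusted p was 0.999922. At an unadjusted p under 0.05 there were 190, of which 114 were higher and 76 lower. The log2 differences and standard errors were 4.01 ± 1.28 for COL3A1, 1.58 ± 0.60 for COL1A2, 1.90 ± 0.76 for POSTN, 0.84 ± 0.41 for THY1, -0.12 ± 0.24 for CDH2 and -0.96 ± 0.58 for MMP14. For VIM the difference was -0.58 ± 2.19, an error set mostly by the 5 other libraries, among which VIM had 2 levels. Without siWFDC21P-2 replicate 1, which lay next to siNC replicate 3, 3 genes passed in limma, all lower, namely HSPA6, HSPA1B and KLHDC7B (adjusted p = 0.00528, 0.0454 and 0.0432). The p-values measure the spread between these libraries, which may be technical.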

How the data were processed

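RNA sequencing of 9 libraries was deposited as 1 table of FPKM per Ensembl gene for each library, calculated by the authors. The submitters' processing notes list hg38, HTSeq 0.6.0, Bowtie2 2.2.3 and HISAT2 2.1.0, and the role of each tool is not given in the sources used here. Gene names came from a table of IDs (26274 of 26636 shared genes matched), and positions and exon lengths from GENCODE 29 (hg38). Depth was taken as the number of reads at which FPKM values of low single-transcript genes came out whole (within 0.02 reads for 99.3 to 99.7% of values, and for 96.2 to 97.0% over all shared genes). Read numbers cover counting error only.

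Levels were compared as log2(FPKM + 1), which understates differences of low genes, over genes whose mean reached 1 FPKM. The VIM-high CDH2-high libraries were compared without a test. The siRNA contrast used limma 3.58.1 (R 4.3.3) with trended variances and the gene table as a term; the code was tested on simulated data. Replicate numbers did not pair the libraries (the closing section gives the check). The members, the 22 gene lists (359 genes, 321 in all 9 tables, 257 with a mean of at least 1 FPKM) and the rule for named genes were chosen with earlier results of these data known. The rule took the 5 markers, the 12 largest and 8 smallest differences without overlap, the most abundant and most different members of each list, defining markers of other cell types, and the 8 most variable members. Genes beyond the rule, such as TNS1, SNAI2 and COL1A1, are named to account for list members. Some items that the rule or the lists hold are not reported here. Alternatives were the pseudocount, the filter, 2 scalings, each library left out, each EPCAM subset, a smaller difference, the replicate block and, added after the values had been seen, the siNC libraries alone. Promoters came from RefSeq (GRCh38.p14).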

Additional observations from a re-analysis of the deposited data

How the results depend on the processing

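The counts of 492 higher and 335 lower genes depended on the scale. They were 801 and 739 with a pseudocount of 0.1, 665 and 535 with 0.5, 306 and 219 with a mean of at least 5 FPKM, and 1276 and 1416 with a difference of at least 1. Against the EPCAM-high libraries alone they were 611 and 763 (44.5% of the counted genes higher, against 59.5%), and against the EPCAM-low libraries alone 646 and 545. Leaving out each library in turn gave 484 to 508 higher and 323 to 365 lower genes, and the siNC libraries alone gave 580 and 463. A median-of-ratios factor gave 527 and 296 and moved the median difference of all genes from -0.13 to -0.01. Rescaling to the same sum gave 493 and 338. Of list medians larger than the spread among the 4 libraries, 5 values changed sign, the integrins to 0.080 without siWFDC21P-1 replicate 3 (-0.57 to 0.080 over the libraries left out) and to 0.063 and 0.35 against the EPCAM-high and EPCAM-low libraries alone, the TGF-beta list to -0.043 with the siNC libraries alone, and basal and myoepithelial markers to 0.068 against the EPCAM-low libraries alone. Of the recomputed differences of named genes, 333 moved by less than the spread among libraries and 85 by more.

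In limma, siWFDC21P-2 against siNC gave 0 genes in the fit described and with the replicate block (403 at an unadjusted p under 0.05), without the gene-table term (1874), with pseudocounts of 0.1 (202) and 0.5 (191), with a mean of at least 5 FPKM (97) and with median-of-ratios factors (200). Without a filter 14 genes passed, all lower and none with a mean above 0.195 FPKM. Leaving out each library gave 0 to 3 genes. The fit without siNC replicate 3 was not run, because that library is the only control with its gene table. Deviations of libraries with the same replicate number correlated at -0.683 to 0.667 and those with different numbers at -0.760 to 0.788, so the block does not stand for a known pairing. Depth limits the low values, since 3 reads of CDH2 would be 0.0372 FPKM at the lowest depth among the 4 libraries and 0.0216 FPKM among the others.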
